A study of Mus musculus with 4 samples.

Results

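The 42 genes described here encode the extracellular matrix around muscle stem cells (MuSCs): fibrillar, collagen VI and basement membrane collagens, laminin chains, the proteins that link or coat the basement membrane, the laminin receptor dystroglycan, interstitial and matricellular proteins, and the enzymes and inhibitors that remodel matrix. They were chosen by name, and each symbol matched 1 of the 32285 genes counted. All 42 had at least 1 UMI (unique molecular identifier, the tag that marks 1 captured RNA molecule) in the kept cells.

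As background, a quiescent MuSC lies between the plasma membrane of its myofibre and the basal lamina, a sheet of laminin and collagen IV networks joined by nidogens and perlecan. Outside it lies an interstitial matrix of collagens I, III and VI that is made mainly by fibroblasts and fibro-adipogenic cells. MuSCs add matrix of their own, and collagen V made by MuSCs is known to hold them in quiescence through the calcitonin receptor.

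The samples were tdTomato+ cells sorted from hindlimb muscle of C57BL/6J mice aged 3 to 4 months, taken 14 days after the last of 5 daily tamoxifen injections. The Control group (n = 2 samples) carried Pax7CreERT2/+ and Rosa26-tdTomato without floxed catenin alleles, and the α-cdKO group (n = 2) carried Ctnna1fl/fl and Ctnna3fl/fl with the same Cre and reporter, so every sample had the Cre, the reporter and tamoxifen. Each sample was a pool from 2 littermates. CreERT2 follows Pax7, the transcription factor of MuSCs, so recombination was aimed at MuSCs and their progeny. How the cells of other types came to be in these libraries was not tested. The question was what MuSCs that lose α-catenin, which couples cadherins to actin, become, and here what they and the other sorted cells express of the matrix.

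Of 31254 barcodes called as cells, 28790 were kept, 5484 and 5354 in Control 1 and 2 and 9786 and 8166 in α-cdKO 1 and 2. The samples are always listed in that order below. Total UMIs per sample were 48515992, 46099310, 73261352 and 74921651, and median UMIs per kept cell were 7723.5, 8075, 6452.5 and 7682.5. Pairs of libraries shared between 9 and 26 kept barcodes. The counts come from the 3′ ends of transcripts and need not cover the deleted exons, so they do not check the deletion: Ctnna1 was at 91.0, 74.9, 79.3 and 75.6 CPM (counts per 1000000 UMIs) in myogenic cells (edgeR, adjusted p = 0.852), and Ctnna3 had 1, 2, 2 and 7 UMIs. Control 2 stood apart in holding 840 mature-muscle-like cells, 15.7% of its kept cells, where the other samples had 1.43 to 2.89%.

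Cells were clustered with all 42 genes left out, and classes were named from marker genes, so the naming did not use the genes below. Quiescent-like MuSCs numbered 4546 and were led by Fos, Jun and Hes1, and activated-like MuSCs numbered 12758 and were led by Cxcl3, Cxcl2 and Dio2. A further 8666 myogenic cells, led by the chaperone genes Dnaja4, Dnaja1 and Hsph1, matched no marker list and are called chaperone-led. Cycling-like cells numbered 651 and differentiated-like cells 478, which brought the myogenic cells to 27099. The other classes were small: 91 endothelial-like cells (23, 18, 31 and 19), 43 fibroblast-like cells (7, 12, 19 and 5), 43 glial-like cells (13, 4, 10 and 16), 31 mural-like cells (8, 6, 11 and 6) and 29 immune-like cells. Some were not pure. Pooled over samples, the MuSC genes Pax7, Myf5 and Myod1 together were at 385 CPM in glial-like and 191 CPM in mural-like cells. They were at 32.4 CPM in fibroblast-like, 13.5 CPM in immune-like and 539 CPM in quiescent-like cells, and at 21.5 and 50.4 CPM in the endothelial-like clusters. The part of MuSC RNA in the levels of glial-like and mural-like cells was not tested. Glial-like cells carried Lyz2, which made up their whole immune-list sum of 1591 CPM, with the other 6 immune markers at 0. Fibroblast-like cells carried 2316 CPM of 4 tendon markers, most of all in Control 1 (5223 CPM, led by Thbs4), and mural-like cells carried endothelial markers at 3558 CPM in Control 1 and 2523 CPM in α-cdKO 2 and at 0 and 23.9 CPM in the other samples. Glial-like cells carried endothelial markers at 811 CPM in α-cdKO 1 and at 11.9 to 68.9 CPM elsewhere, and endothelial-like cells carried mural markers, led by Rgs5, at 746, 1778, 712 and 172 CPM, mature-muscle markers at 549, 4699, 384 and 123 CPM and immune markers at 0, 8.80, 336 and 111 CPM.

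The start regions of 3 genes are printed as a description, and they are taken from RefSeq tables of build GRCm38.p6, 250 bases before to 50 bases after each start. Col4a1 (ENSMUSG00000031502) and Col4a2 (ENSMUSG00000031503), which encode the chains of the common collagen IV network, are read away from each other on chromosome 8, with start sites 21 bases apart, so that the annotated genes overlap by 22 bases. Capitals mark the 78 bases that both windows hold, at chr8:11312777-11312854, on opposite strands.
Col4a1, chr8:11312777-11313076, minus strand: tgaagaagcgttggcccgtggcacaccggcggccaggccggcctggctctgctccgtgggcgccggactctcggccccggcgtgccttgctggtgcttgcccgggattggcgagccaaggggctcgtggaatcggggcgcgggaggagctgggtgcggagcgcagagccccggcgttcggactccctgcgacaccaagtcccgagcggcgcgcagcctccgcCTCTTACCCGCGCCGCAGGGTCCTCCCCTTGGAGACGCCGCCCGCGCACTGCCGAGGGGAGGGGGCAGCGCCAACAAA
Col4a2, chr8:11312555-11312854, plus strand: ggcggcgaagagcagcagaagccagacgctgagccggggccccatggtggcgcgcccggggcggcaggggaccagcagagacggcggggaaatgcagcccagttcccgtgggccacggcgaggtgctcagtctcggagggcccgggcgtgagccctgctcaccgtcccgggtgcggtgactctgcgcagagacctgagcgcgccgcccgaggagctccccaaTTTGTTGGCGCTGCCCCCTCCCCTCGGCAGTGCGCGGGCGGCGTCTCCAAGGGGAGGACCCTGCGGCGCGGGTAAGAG
Col3a1 (ENSMUSG00000026043), the collagen III gene and the most abundant collagen transcript of MuSCs, is shown because its window holds the letters TATAAA (capitals), starting 117 bases before the start site.
Col3a1, chr1:45311288-45311587, plus strand: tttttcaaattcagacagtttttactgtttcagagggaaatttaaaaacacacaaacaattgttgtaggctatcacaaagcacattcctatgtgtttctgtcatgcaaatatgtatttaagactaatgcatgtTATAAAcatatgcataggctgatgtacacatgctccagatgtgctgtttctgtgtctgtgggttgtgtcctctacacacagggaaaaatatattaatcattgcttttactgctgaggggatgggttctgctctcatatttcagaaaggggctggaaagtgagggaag
Windows were at hand for 30 of the 42 genes, all but Col1a1, Col5a2, Dcn, Fn1, Lama4, Lamc1, Lox, Loxl2, Matn2, Mmp2, Nid2 and Thbs1. On either strand, TATAAA was in 13.6% of all 32851 promoter windows and in 4 of the 30 (Adamts1, Col3a1, Postn and Tnc), CCAAT was in 37.4% and in 13, and GGGCGG was in 35.7% and in 23. TGANTCA was in 7.81% and in 1, Col6a1. These are matches of letters and show no binding.

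Levels are CPM summed per sample and class and averaged over the 4 samples. Each captured molecule gives 1 tag whatever the transcript's length, so levels were not divided by length. How far capture differs between genes was not tested, so ratios between genes are ratios of UMIs. Together the 42 genes held 3616 ± 505 CPM (SD, n = 4) in myogenic cells, with Sparc at 24.8% of that. In fibroblast-like cells they held 50626 ± 6728 CPM, with Dcn at 29.6%. The mean level was highest in fibroblast-like cells for 34 of the 42 genes. Agrn, Dag1, Matn2 and Matn4 were highest in glial-like cells, Adamts1 in endothelial-like, Timp3 in mural-like, Thbs1 in immune-like and Lama5 in differentiated-like cells. Within samples, that class was the highest in 3 of 4 for Matn2 and Thbs1, in 2 for Agrn, Lama5, Matn4 and Timp3 and in 1 for Dag1 and Adamts1, so the first place of those 6 genes is not settled by these samples. Of the 34 genes with the highest mean in fibroblast-like cells, that class was the highest in 2 samples for Col4a1, Col18a1 and Postn and in 1 for Col4a2, which are not settled either, and in 3 or 4 for the others. Because myogenic cells made up most of every library, they nonetheless held over 80% of the UMIs of 35 of the genes. The exceptions were Col1a1 (77.5%), Fn1 (66.1%), Dcn (43.3%), Col1a2 (40.3%), Lama4 (27.7%), Postn (16.8%) and Col6a3 (15.6%).

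**Figure D1:**
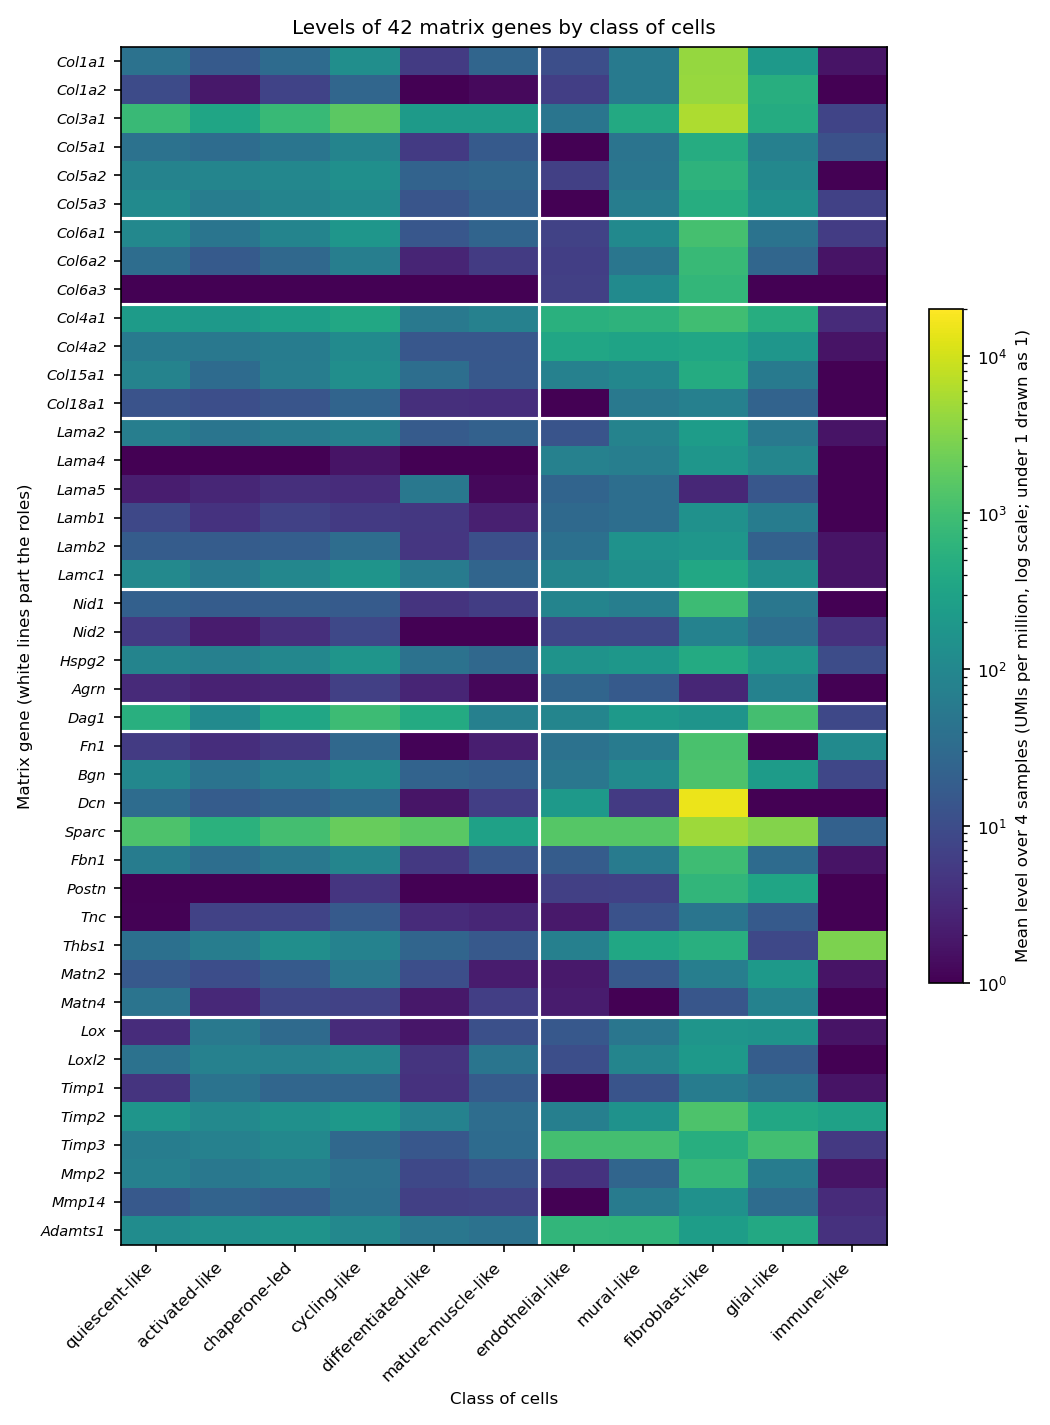
Mean level of each of the 42 matrix genes (rows, parted by role) in each class of cells (columns), in CPM averaged over 4 samples on a log colour scale. The fibroblast-like column is the brightest for 34 genes and the Thbs1 row is brightest in immune-like cells.

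The first comparison asks which matrix genes MuSCs themselves express and which belong to the few other cells in the sort. A gene was called here where it differed at least 4-fold in each of the 4 samples, with 5 CPM added and with no overlap of the groups. These calls describe clusters of the same cells and carry no p-value. In fibroblast-like cells 20 of the 42 genes were higher than in myogenic cells and 0 were lower, against 1.63% of all 17398 genes higher and 0.264% lower. The median log2 ratio of the 42 was 2.59. With Control 1, Control 2, α-cdKO 1 or α-cdKO 2 left out, the count was 24, 21, 23 and 22, against 2.13%, 1.90%, 1.93% and 2.00% of all genes.

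Dcn, which encodes the collagen-binding proteoglycan decorin, was at 14161, 18708, 12872 and 13646 CPM in fibroblast-like cells and at 26.4, 14.6, 34.7 and 12.7 CPM in myogenic cells. Col1a2 and Col1a1 encode the collagen I chains. Col1a2 was at 2648, 3079, 7008 and 4565 CPM in fibroblast-like and at 3.82, 3.05, 9.39 and 7.31 CPM in myogenic cells, and Col1a1 was at 2599, 3114, 6451 and 4341 and at 16.8, 20.1, 27.8 and 50.8 CPM. Postn, which encodes the matricellular protein periostin, was at 1827, 350, 527 and 24.9 CPM in fibroblast-like cells and stayed under 1 CPM in myogenic cells (mean 0.326). Col6a3, the third main chain of collagen VI, was at 429, 650, 463 and 1222 CPM and likewise at a mean of 0.211 CPM in myogenic cells. Fn1, fibronectin, was at 969, 929, 1787 and 948 CPM in fibroblast-like and at 2.81, 5.23, 8.97 and 4.75 CPM in myogenic cells. The Postn value of α-cdKO 2 is 1 UMI in 5 cells. In these 6 genes every fibroblast-like sample lay above every myogenic sample, at log2 ratios between 5.91 (Postn) and 9.16 (Dcn). The tendon markers of fibroblast-like cells, at 5223, 1193, 1799 and 1048 CPM, had the same order of samples as Postn. Their part in the Postn level was not tested.

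Free RNA from lysed fibroblasts would appear in MuSC droplets, so the myogenic level of each gene was set beside its fibroblast-like level. The fibroblast markers Pdgfra, Pi16, Clec3b and Dpep1 stood in myogenic cells at 0.0122% to 0.0665% of their fibroblast-like level, and Gsn, Cd55, Dpt and Serping1 at 2.62% to 18.6%. Col6a3 (0.0306%) and Postn (0.0478%) lay within the range of the first 4 markers, so no expression is read from their myogenic levels. These 4 are the lowest of the 8 markers, and the part of free RNA was not tested. Col1a2 (0.136%), Dcn (0.149%) and Lama4 (0.145%) lay above it by a small margin. Fn1 stood at 0.47%, Col1a1 at 0.699% and Nid1 at 2.02%. Above the first 4 markers by more were Col3a1 at 10.2%, Sparc at 19%, Col4a1 at 24%, Adamts1 at 57.8% and Dag1 at 172% of their fibroblast-like levels. Of these, Col3a1 lay within the range of the other 4 markers and Sparc just above its upper end.

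**Figure D2:**
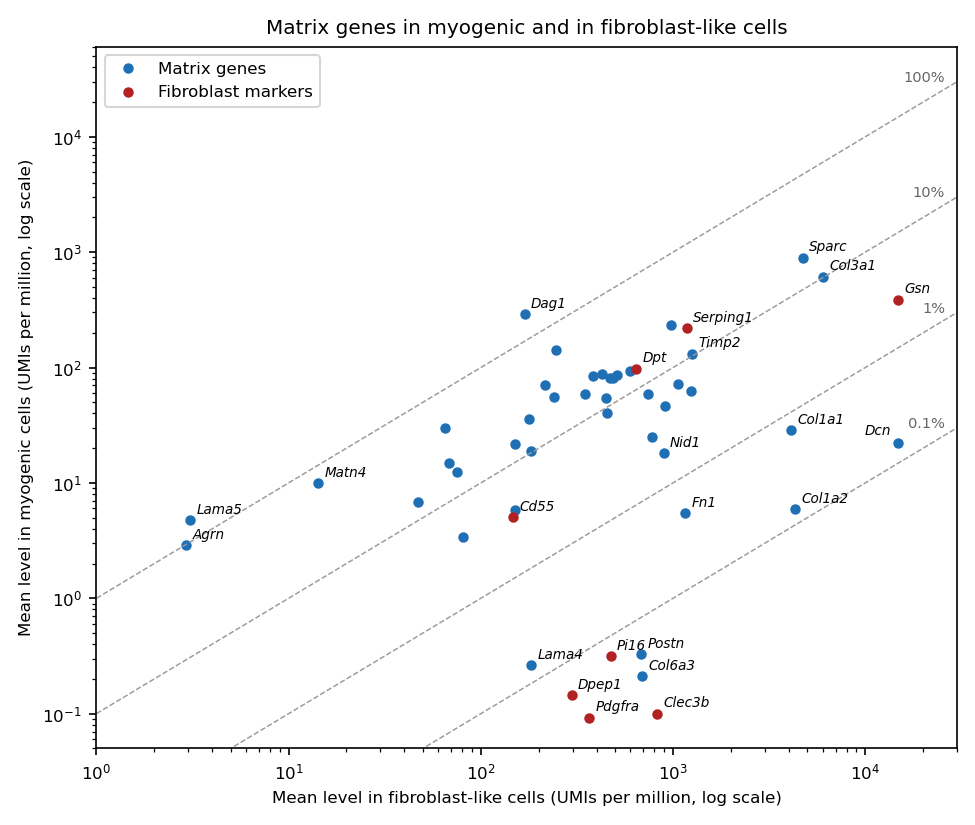
Mean level in myogenic cells (vertical, CPM, log scale) against mean level in fibroblast-like cells (horizontal, CPM, log scale) for the 42 matrix genes (blue) and 8 fibroblast markers (red), averaged over 4 samples. Dashed lines mark myogenic levels of 100, 10, 1 and 0.1% of the fibroblast-like level; Col6a3, Postn and 4 of the markers lie below the lowest line, while Col3a1, Sparc and Dag1 lie near or above the line of 10%.

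The ratio of UMIs between partner chains also differed between the classes. Col1a1 and Col1a2 UMIs were nearly equal in fibroblast-like cells (0.981, 1.01, 0.921 and 0.951 Col1a1 UMIs per Col1a2 UMI). In quiescent-like cells the same ratio was 4.17, 4.61, 2.57 and 8.89, and in activated-like cells it was 5.5 to 12.6, so no MuSC sample reached the fibroblast-like ratio. Col3a1 outnumbered Col1a1 by 17.1 to 30.6 to 1 in myogenic cells and by 1.04 to 1.9 to 1 in fibroblast-like cells. Col6a1 and Col6a2, the other chains of collagen VI, stood at 2.63 to 3.07 to 1 in myogenic cells and 1.3 to 1.48 to 1 in fibroblast-like cells. For Col6a1 against Col6a3 the pooled ratio was 296 in myogenic cells (57 Col6a3 UMIs among 27099 cells) and 1.88 in fibroblast-like cells. Myogenic cells thus held the UMIs of 2 collagen VI chains almost without the third.

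Endothelial-like cells had 3 of the 42 genes higher than myogenic cells and 6 lower, against 2.78% and 0.603% of all 17425 genes. Their 8 endothelial markers were in myogenic cells at 0.00340 to 0.679% of the endothelial-like level. Lama4, the laminin chain of vessel basement membranes, was at 103, 79.2, 72 and 61.4 CPM in endothelial-like cells (35 UMIs) and at 0.15, 0.171, 0.286 and 0.452 CPM in myogenic cells. Timp3, a matrix-bound inhibitor of metalloproteinases, was at 986, 1364, 943 and 860 CPM in endothelial-like and at 86.2, 68.5, 79.9 and 88.9 CPM in myogenic cells. The mural and mature-muscle markers in endothelial-like cells were likewise highest in Control 2, and their part in the Timp3 level was not tested. Col4a2 was at 429, 299, 304 and 356 CPM in endothelial-like and at 58.8, 54.2, 49 and 72.2 CPM in myogenic cells. The samples of the 2 classes did not overlap for any of these genes, with log2 ratios of 3.97 ± 0.33, 3.59 ± 0.44 and 2.47 ± 0.23 (SD, n = 4).

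The partner chain behind the same start region, Col4a1, was at 549, 493, 536 and 577 CPM in endothelial-like cells and at 234, 218, 199 and 283 CPM in myogenic cells, a log2 ratio of 1.20 ± 0.16. Endothelial-like cells therefore had 1.28 to 1.76 Col4a1 UMIs per Col4a2 UMI, while every myogenic sample had 3.91 to 4.07. The sequences printed above share 78 bases, and their part in the ratio was not tested. The ratio in quiescent-like cells was 4.19, 3.97, 4.07 and 3.92 and in activated-like cells 3.83, 3.96, 4.04 and 3.93. Fibroblast-like cells had 2.06 to 4.25, below the myogenic range in 3 samples and above it in α-cdKO 2.

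Adamts1, a secreted protease that cleaves proteoglycans, was at 454, 1003, 464 and 737 CPM in endothelial-like cells against 167, 125, 126 and 152 CPM in myogenic cells. Hspg2, which encodes perlecan, was at 189, 132, 144 and 184 against 88.8, 80.2, 91.3 and 91.9 CPM. Lama5, the other laminin α-chain of vessels, was at 25.7, 8.8, 40 and 24.6 CPM (11 UMIs) against 4.04, 4.81, 4.95 and 5.19 CPM. All 3 were higher in every endothelial-like sample than in the same sample's myogenic cells, by less than the 4-fold rule in at least 1 sample. Adamts1, too, was highest in Control 2. Lamb2, a laminin β-chain, was at 34.3, 44, 40 and 36.9 CPM in endothelial-like cells. Fn1 was at 51.4, 70.4, 24 and 24.6 CPM and Nid1, the nidogen that joins laminin to collagen IV, at 77.2, 61.6, 112 and 98.3 CPM there. The 6 genes that were lower in endothelial-like cells were Col3a1 (log2 ratio -3.74), Col5a1, Col5a3, Timp1, Mmp2 (-2.96) and Mmp14. Col5a1, Col5a3, Timp1 and Mmp14 had 0 UMIs in the 91 endothelial-like cells, which allows up to 6.87 CPM (3 UMIs over the class, counting error only). Myogenic cells were then at least 11.7-fold higher for Col5a3, at 80.5 CPM, and at least 3.14-fold for Mmp14, at 21.6 CPM. For these 4 genes the 4-fold call in each sample rests on the 5 CPM added, and for Mmp14 the bound over the class lies under 4-fold. The fibroblast gene Dcn was unevenly spread over endothelial-like cells, at 0, 114, 672 and 24.6 CPM, with most of it in α-cdKO 1.

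Glial-like cells, marked by the Schwann cell genes Mbp and Sox10 and with Ngfr alone of 7 glial markers at 0, had 2 of the 42 genes higher than myogenic cells and 0 lower, against 0.995% and 0.127% of all 17385 genes. Sox10 stood in myogenic cells at 0.0106% and Mbp at 0.0624% of the glial-like level. Col1a2 was at 262, 826, 679.7 and 235 CPM in glial-like cells, above every myogenic sample, with a log2 ratio of 5.37 ± 1.03. There Col1a2 outnumbered Col1a1, at 0.0909, 0.542, 0.355 and 0.387 Col1a1 UMIs per Col1a2 UMI, below the fibroblast-like ratio in every sample. Timp3 was at 738, 1584, 1009 and 621 CPM, with a log2 ratio of 3.44 ± 0.75. The part of the endothelial markers, which were highest in α-cdKO 1, was not tested. Dcn had 0 UMIs in the 43 glial-like cells, which allows up to 10.3 CPM, and of the 8 fibroblast markers Pdgfra, Pi16, Clec3b and Dpep1 were also at 0 UMIs, while the list summed to 809.8, 516, 811 and 523 CPM, led by Gsn. The part of fibroblast RNA in the Col1a2 level was not tested.

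Further genes were high in glial-like cells but uneven over the samples, of which Control 2 had only 4 such cells. Dag1 was at 822, 1894, 636 and 773 CPM and Sparc at 1369, 4441, 5482 and 1531 CPM. Postn was at 429, 0, 658 and 250.1 CPM, absent from the 4 cells of Control 2. Matn2, a matrilin known from Schwann cells, was at 250.1, 34.4, 307 and 219.8 CPM, higher than in the myogenic cells of every sample (mean 14.7). Agrn, the proteoglycan that organises the neuromuscular synapse, was at 11.9, 241, 65.8 and 7.58 CPM from 12 UMIs. Lamb1 was at 35.7, 172, 43.9 and 7.58 CPM (11 UMIs). Nid2 was at 11.9, 68.9, 21.9 and 37.9 CPM (9 UMIs) and Col18a1 at 47.6, 0, 21.9 and 22.7 CPM (8 UMIs), so a few UMIs set each sample's value. Without Control 2, 5 of the 42 genes met the rule (1.58% of all genes did).

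Mural-like cells had 2 of the 42 genes higher than myogenic cells and 0 lower, against 0.880% and 0.0748% of all 17386 genes. They were Col6a3, at 98.2, 128, 107 and 117 CPM (log2 ratio 4.49 ± 0.16), and Timp3, at 1828, 886, 489 and 977 CPM (log2 ratio 3.46 ± 0.74). Endothelial markers were absent or low in the 6 cells of Control 2 and the 11 cells of α-cdKO 1. The rule already required a 4-fold difference in each sample, so the levels of those samples say nothing more. The part of endothelial RNA in the Col6a3 and Timp3 levels was not tested.

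Lama5 had its highest mean in differentiated-like cells, though it was the highest class in 2 of 4 samples only, at 41.5, 52.3, 57.9 and 60.6 CPM against 3.26, 3.58, 1.68 and 3.09 CPM in activated-like cells. Thbs1, which encodes the matricellular protein thrombospondin 1, was at 3308, 2303, 117 and 5711 CPM in the 29 immune-like cells.

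The second comparison asks how matrix genes differ between the quiescent-like and activated-like states. By the study's account, isolation and sorting stress and activate MuSCs, which it also saw in these cells. The muscles were not injured, so both states are states of sorted cells. The part of isolation in the differences between them was not tested. A gene was called where it differed at least 1.5-fold in each of the 4 samples, with 5 CPM added to both levels as in every log2 ratio between classes and each fold taken from one, and with no overlap, again without a p-value because states are clusters of the same cells. The 42 genes summed to 4096, 4429, 4032 and 5588 CPM in quiescent-like cells and to 2615, 2393, 2176 and 3144 CPM in activated-like cells, higher in the former in every sample. Of the 42, 8 were higher in quiescent-like cells and 2 were lower, against 10.1% and 7.91% of all 15941 genes. The median log2 ratio was 0.29 for the 42 and 0.10 for all genes. With 1 CPM added in place of 5, 13 were higher (20.7% of all genes were), as they were without Control 1 (11.9% of all genes). Quiescent-like cells were shallower (median 5820 UMIs) than activated-like cells (7174).

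Of the 6 fibrillar collagen genes 2 were higher in quiescent-like cells. Col3a1 was at 646, 787, 633 and 1218 CPM in quiescent-like cells and at 304, 301, 259.8 and 498 CPM in activated-like cells. Every quiescent-like sample lay above every activated-like sample, a 2.38-fold difference (log2 ratio 1.25 ± 0.12, SD, n = 4). Col5a3, a collagen V chain, was at 128, 93.4, 100.3 and 135 CPM in quiescent-like cells and at 78.8, 59.8, 50.1 and 80.8 CPM in activated-like cells, a log2 ratio of 0.73 ± 0.15. The other collagen V chains did not share it: Col5a1 was at 44.5, 44.4, 36.3 and 44.3 CPM in quiescent-like cells and at 42, 33.1, 26.5 and 30.7 CPM in activated-like cells, and Col5a2 was at 79.4, 94.4, 69.2 and 87.5 CPM in quiescent-like cells and at 103, 95.8, 77.4 and 92.1 CPM in activated-like cells. Col5a2 is the neighbour of Col3a1 on chromosome 1, with 24614 bases between the genes, and the number of Col3a1 UMIs per Col5a2 UMI was 8.14 to 13.9 in quiescent-like and 2.94 to 5.4 in activated-like samples. Col1a1 was at 14.2, 22.9, 55.5 and 72.8 CPM in quiescent-like cells and at 9.13, 14.8, 13.6 and 28.1 CPM in activated-like cells, higher in the quiescent-like cells of each sample but short of the rule in both controls. Col1a2 stayed under 25 CPM in both states, at a mean of 9.55 and 1.89 CPM.

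Collagen VI surrounds the basal lamina. Col6a1 was at 90.8, 101, 93.9 and 124 CPM in quiescent-like cells and at 43.9, 48.8, 39.1 and 56.6 CPM in activated-like cells, a log2 ratio of 1.05 ± 0.09 without overlap. Col6a2 was at 29.8, 34.1, 34.4 and 39.1 CPM in quiescent-like cells and at 18.9, 15.3, 13.6 and 18.9 CPM in activated-like cells, higher in each sample and without overlap, but under 1.5-fold in Control 1 once 5 CPM was added. Col6a3 stayed under 1 CPM.

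Among the basement membrane collagens, Col15a1, whose product anchors the basement membrane to the fibrils outside it, was at 73.1, 70.8, 73.9 and 113 CPM in quiescent-like cells and at 25.9, 27.1, 25.5 and 48 CPM in activated-like cells. The groups did not overlap and the log2 ratio was 1.28 ± 0.10. The collagen IV chains hardly differed: Col4a1 was at 210.1, 222, 204 and 288 CPM in quiescent-like cells and at 210.4, 199, 175 and 249 CPM in activated-like cells (log2 ratio 0.14 ± 0.10). Col4a2 was at 50.2, 55.9, 50 and 73.4 CPM in quiescent-like cells and at 54.9, 50.3, 43.3 and 63.3 CPM in activated-like cells (log2 ratio 0.10 ± 0.15). The states overlapped for both chains. Col18a1, the precursor of endostatin, was at a mean of 12.4 and 10.7 CPM.

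None of the 6 laminin chains met the rule, and their median log2 ratio was 0.25. Lamc1, the γ-chain of most laminins, was at 95.9, 106, 102 and 118 CPM in quiescent-like cells and at 65.7, 50.1, 57 and 67.7 CPM in activated-like cells, higher in the quiescent-like cells of each sample (log2 ratio 0.77 ± 0.20). Lama2, the α-chain of the muscle fibre's basal lamina, was at 70.3, 59.7, 74.8 and 69.2 CPM in quiescent-like cells and at 49.6, 42.9, 41.9 and 53.3 CPM in activated-like cells. Lamb1 averaged 8.63 and 4.32 CPM and Lamb2 18.2 and 18 CPM, which gave 1.73 to 2.26 Lamb2 UMIs per Lamb1 UMI in quiescent-like and 3.71 to 5.32 in activated-like samples, 2 ranges that do not overlap. Lama4 (mean 0.124 and 0.301 CPM) and Lama5 (2.19 and 2.9 CPM) were scarce in both.

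The linkers and proteoglycans of the basement membrane did not meet the rule either (0 of 4). Hspg2 was at 82.3, 88, 97.6 and 86.5 CPM in quiescent-like cells and at 77.6, 70, 72.2 and 82.7 CPM in activated-like cells, and Nid1 was at 31.9, 17.9, 11.8 and 20.4 CPM in quiescent-like cells and at 24.1, 14.9, 15.3 and 18 CPM in activated-like cells. In both genes the states overlapped. Nid2 and Agrn averaged 5.4 and 3.23 CPM in quiescent-like cells.

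Dag1, the precursor of α- and β-dystroglycan and the receptor that ties laminin to the cell, was at 406, 593, 516 and 549 CPM in quiescent-like cells and at 125, 111, 105 and 124 CPM in activated-like cells. Each sample showed the difference and the groups lay far apart, 4.26-fold (log2 ratio 2.09 ± 0.31). Chaperone-led cells lay between, at 314, 352, 349 and 366 CPM, and cycling-like cells above, at 911, 925, 836 and 854 CPM. Lamb2, which encodes a chain of its ligand, lies 215777 bases from Dag1 on chromosome 9 and had a log2 ratio of 0.00 ± 0.12.

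Of the 10 interstitial and matricellular genes 3 were higher in quiescent-like cells. Sparc, which encodes the collagen-binding protein osteonectin, was at 1125, 1306, 933 and 1691 CPM in quiescent-like cells and at 498, 540.5, 374 and 786 CPM in activated-like cells. It was 2.31-fold higher without overlap (log2 ratio 1.21 ± 0.09). Bgn, the proteoglycan biglycan, was at 72, 73.5, 153 and 96.4 CPM in quiescent-like cells and at 34, 32.5, 59.6 and 48 CPM in activated-like cells, a log2 ratio of 1.07 ± 0.16. Matn4, a matrilin, was at 75.6, 20.3, 50.4 and 31 CPM in quiescent-like cells and at 2.3, 1.9, 4.05 and 4.47 CPM in activated-like cells. It was close to absent from activated-like cells of every sample, with the widest spread of the ratios that met the rule (log2 ratio 2.47 ± 0.74). Fbn1, the microfibril protein fibrillin 1, was at 67.2, 52.8, 56.7 and 74.5 CPM in quiescent-like cells and at 43.6, 28.9, 31.8 and 40.3 CPM in activated-like cells, higher in every sample at a log2 ratio of 0.73 ± 0.10, without overlap but under 1.5-fold in Control 1 once 5 CPM was added. Dcn was at 54.1, 28.4, 41 and 10.7 CPM in quiescent-like cells and at 20.3, 8.94, 29.6 and 12.1 CPM in activated-like cells, so that the log2 ratio ran from 1.26 in Control 2 to -0.13 in α-cdKO 2. Thbs1 was at 32.3, 20.6, 47.4 and 55.2 CPM in quiescent-like cells and at 49.9, 45, 87.1 and 81.8 CPM in activated-like cells, lower in the quiescent-like cells of each sample without meeting the rule. Fn1 and Matn2 averaged 5.52 and 15.6 CPM in quiescent-like cells, Postn 0.419 CPM and Tnc, tenascin C, 1.05 CPM against 7.15 CPM in activated-like cells.

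The remodelling genes held the 2 members that were lower in quiescent-like cells. Lox, the lysyl oxidase that crosslinks collagen and elastin, was at 5.89, 2.56, 2.96 and 2.84 CPM in quiescent-like cells and at 68.6, 63.8, 42.7 and 40.8 CPM in activated-like cells. Timp1, an inhibitor of metalloproteinases, was at 3.23, 1.8, 9.4 and 3.6 CPM in quiescent-like cells and at 36.4, 43.7, 50.2 and 44.7 CPM in activated-like cells. Neither gene overlapped between the states, at log2 ratios of -2.77 ± 0.29 and -2.41 ± 0.38. Loxl2, a related oxidase, was at 62.7, 36.8, 33.4 and 33.8 CPM in quiescent-like cells and at 119, 72.8, 48.3 and 64.5 CPM in activated-like cells (log2 ratio -0.77 ± 0.20). Of the related inhibitors, Timp2 was higher in the quiescent-like cells of each sample and Timp3 lower. Timp2 was at 159, 173, 179 and 183 CPM in quiescent-like cells and at 114, 95.8, 100.1 and 114 CPM in activated-like cells (log2 ratio 0.68 ± 0.17), and Timp3 was at 75.6, 55.6, 62.7 and 71 CPM in quiescent-like cells and at 83.2, 60.5, 83.4 and 86.2 CPM in activated-like cells (log2 ratio -0.22 ± 0.13). Mmp2, the gelatinase that degrades collagen IV, was at 73.5, 82.1, 78.2 and 69.5 CPM in quiescent-like cells and at 61, 53.9, 41 and 51.6 CPM in activated-like cells. Mmp14, the membrane protease that activates Mmp2, was at 18, 14.6, 15.5 and 16.5 CPM in quiescent-like cells and at 31.4, 22.4, 16.2 and 23 CPM in activated-like cells. Adamts1 was at 146, 101, 112 and 127 CPM in quiescent-like cells and at 158, 129, 125 and 166 CPM in activated-like cells. The states overlapped for Loxl2, Mmp14 and Adamts1, and did not for Timp2 and Mmp2, which were under 1.5-fold in at least Control 1 with 5 CPM added.

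**Figure D3:**
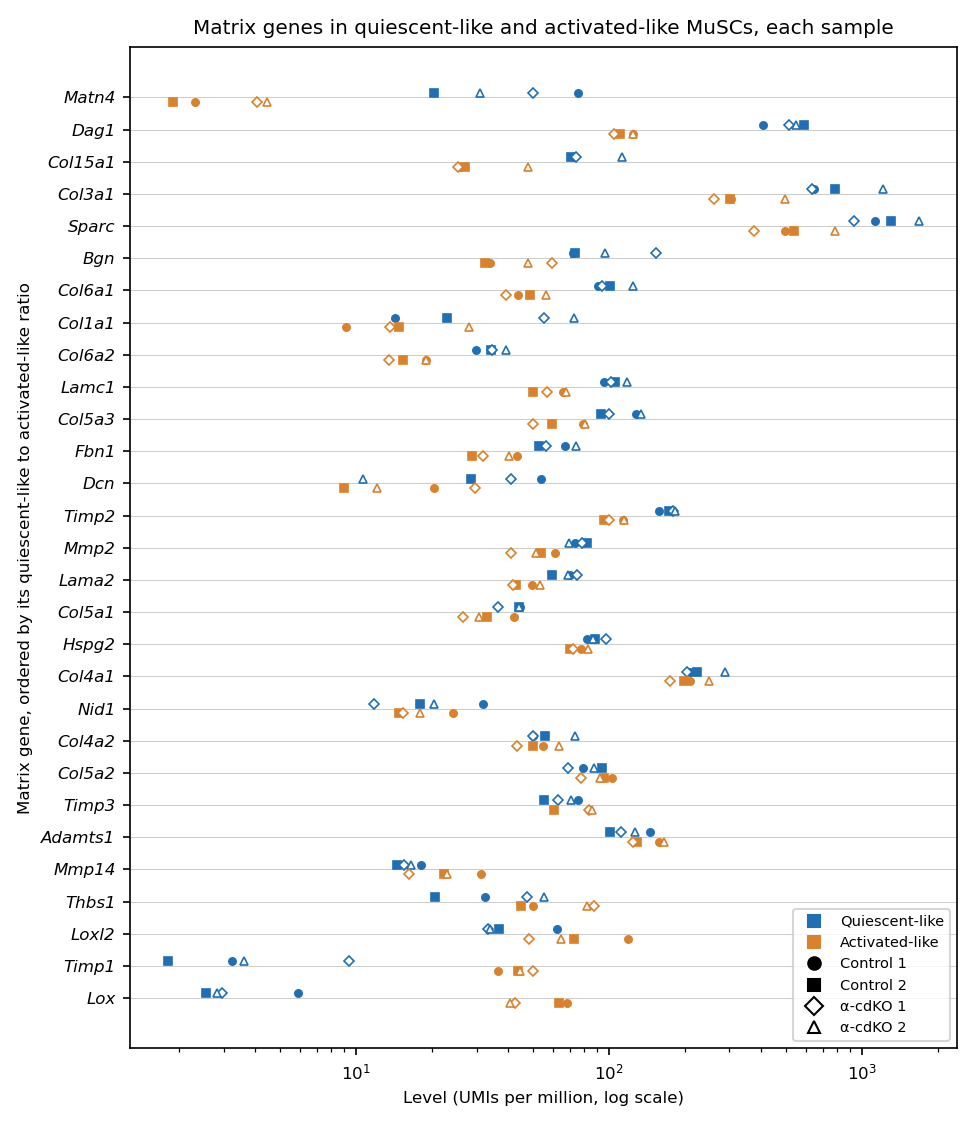
Level (CPM, log scale) of the 29 matrix genes with a mean of at least 20 CPM in either state, in quiescent-like (blue) and activated-like (orange) MuSCs of each sample (filled symbols Control, open symbols α-cdKO), ordered by the ratio of the states. Matn4 and Dag1 at the top have all blue points to the right of all orange points, Lox and Timp1 at the bottom the reverse, and the collagen IV genes overlap.

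Markers of other cells also differed between these states. A list of 8 fibroblast genes (Pdgfra, Pi16, Clec3b, Dpep1, Lum, Fmod, Mfap5 and Smoc2) summed to 3.61, 2.11, 3.61 and 2.51 CPM in quiescent-like cells and to 2.04, 1.23, 2.44 and 1.14 CPM in activated-like cells, against 5267 to 8276 CPM in fibroblast-like cells. The broader fibroblast list summed to 919 and 669.9 CPM, mostly Gsn. The endothelial list summed to 20.8 and 2.28 CPM (mostly Pecam1), the tendon list to 13.2 and 2.46 CPM, the mural list to 329.7 and 165 CPM (mostly Acta2) and the glial list to 11.1 and 3.21 CPM, all higher in the quiescent-like cells of each sample. The cycling list summed to 31.7 and 12.3 CPM and the differentiated list to 53.7 and 16.2 CPM, also higher in the quiescent-like cells of each sample. The part of all these lists in the state differences was not tested.

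Chaperone-led cells were compared with both states. Of them 12.9% had a high doublet score, against 3.08% of activated-like and 1.47% of quiescent-like cells, and they were the deepest of the 3 (median 8462 UMIs). Against activated-like cells 8 of the 42 genes were higher and 1 lower, against 1.43% and 0.320% of all 15959 genes. They were Col1a2, Col3a1, Col6a1, Col6a2, Col15a1, Dag1, Sparc and Thbs1, and the lower gene was Lox. Col3a1 was at 729, 702, 652 and 1089 CPM and Sparc at 1005, 946, 829 and 1316 CPM there. Against quiescent-like cells 1 gene was lower in chaperone-led cells (Matn4) and 4 were higher (Tnc, Thbs1, Lox and Timp1), against 3.25% and 5.94% of all 16110 genes. With the cells of high doublet score removed from each class, 7 genes (all but Col1a2) were higher and Lox lower than in activated-like cells, against 1.51% and 0.448% of all genes. The genes that differed from quiescent-like cells were the same 5, against 3.30% of all genes lower and 5.99% higher in chaperone-led cells.

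Cycling-like cells had 18 of the 42 genes higher than activated-like cells and 2 lower, against 18.2% and 2.66% of all 15125 genes. Col3a1 was at 1643, 1472, 1235 and 2227 CPM (log2 ratio 2.27 ± 0.11), Col1a1 at 83.5, 103, 69.5 and 268 CPM (2.54 ± 0.43) and Sparc at 2203, 1925, 1395 and 2352 CPM (1.85 ± 0.23). Lox (-2.86) and Timp3 (-1.53) were the lower genes. These libraries held 30, 83, 411 and 127 cycling-like cells.

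Differentiated-like cells, the Myog-expressing cells on the way to fusion, had 20 of 40 matrix genes lower than activated-like cells and 3 higher, against 5.84% and 14% of all 14863 genes. The lower genes included Lox (log2 ratio -3.12), Loxl2 (-3.08), Col5a3 (-2.11), Mmp2 (-2.12) and Col4a1 (-1.87). Col4a1 was at 75.5, 44.2, 55.5 and 41.5 CPM in differentiated-like cells. The higher genes were Lama5 (log2 ratio 2.87 ± 0.32), Dag1 (1.84 ± 0.16) and Sparc (1.54 ± 0.39).

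Of 80 other matrix genes on a further list, 69 had enough UMIs to compare quiescent-like with activated-like cells, and 10 (14.5%) were higher and 4 (5.80%) lower, beside 10.1% and 7.91% of all genes. The higher genes included Crtap (log2 ratio 0.70) and Colgalt1 (0.75), which modify collagen in the endoplasmic reticulum, Pcolce (0.71), an enhancer of procollagen cleavage, Loxl1 (0.97), Col12a1 (0.96), Ccn1 (2.47), Sdc2 (0.96), Adamts5 (1.21) and Adamts15 (0.95). The lower genes were Sdc4 (-2.28), the syndecan that marks MuSCs, Vcan (-2.26), Ccn2 (-2.16) and Adamts9 (-0.94). The 5 highest of the 80 in myogenic cells were Sdc4 at 2496 CPM, Serpinh1, the collagen chaperone, at 548, Ccn2 at 382, Ccn1 at 291 and Ppib at 281 CPM.

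The third comparison asks whether loss of α-catenins went with a difference in matrix genes. Summed UMIs of each sample were fitted over all genes with edgeR's quasi-likelihood test (2 against 2 samples, Benjamini-Hochberg adjusted p under 0.05). None of the 42 genes passed in any of the 3 sets of cells tested (all myogenic cells, and each of the quiescent-like and activated-like states). In all myogenic cells, 0 of 42 were called, against 0.0752% of 14636 genes called higher and 0.102% lower in α-cdKO. In quiescent-like cells 0 of 38 tested were called, against 0.0604% and 0.0259% of 11590 genes, and in activated-like cells 0 of 39, against 0.0731% and 0.0812% of 12314 genes. At an unadjusted p under 0.05 there were 9, 6 and 8 of the genes, against 7.10%, 8.37% and 6.74% of all genes. With 1 sample left out, where the lone sample of a genotype is assumed to vary like the others, 0 to 1 of the genes were called in all myogenic, 1 to 8 in quiescent-like and 0 to 8 in activated-like cells. Without Control 2 there were 8 in each state (3.49% of all genes in quiescent-like and 3.19% in activated-like cells were called in those fits), namely Col1a1, Col1a2, Bgn and Thbs1 higher in both, Loxl2 lower in both, Nid1, Dcn and Matn4 lower in quiescent-like cells, and Fn1 and Tnc higher and Lox lower in activated-like cells. Without Control 1 there were 6 in quiescent-like cells (1.79% of all genes), as many as with no filter on low counts (1.46%), and without α-cdKO 2 there were 2 in quiescent-like (0.240%) and 4 in activated-like cells (1.42%). The direction of Matn4 in quiescent-like cells turned with the sample left out, being higher in α-cdKO without Control 1 and lower without Control 2. Dcn, lower in quiescent-like cells without Control 2, was higher in activated-like cells without α-cdKO 2. In simulated data at the full size of 2 against 2 samples the test found 46.3%, 64.2% and 52.2% of genes changed 2-fold in all myogenic, quiescent-like and activated-like cells and 7.46%, 13.4% and 5.97% of those changed 1.5-fold. A difference of 1.5-fold would thus mostly be missed in such genes. They were drawn at random from the genes tested, with a spread set by the trend over genes, so the rates are not specific to the 42.

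The median log2 fold change of α-cdKO over Control over the genes tested was 0.13 in all myogenic, 0.16 in quiescent-like and 0.07 in activated-like cells, against −0.01 for all genes in each. With 1 sample left out these medians ran from 0.003 to 0.24, from 0.03 to 0.26 and from -0.10 to 0.21. Each was lowest without α-cdKO 2, so the small shift depends on single samples. Both α-cdKO samples lay above both controls for 15, 11 and 7 of the genes (18.4%, 17.3% and 15.4% of all genes did) and below them for 3, 3 and 6 (19.8%, 23.2% and 21.5%). α-cdKO 2 held the highest summed matrix level of the 4 samples in quiescent-like, activated-like, chaperone-led and cycling-like cells, while α-cdKO 1 was the lowest in quiescent-like and activated-like cells, so the genotypes overlapped in the sum.

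The genes with the smallest p-values were collagen I, thrombospondin 1 and biglycan on the higher side and the lysyl oxidases on the lower. In quiescent-like cells Col1a1 was at 14.2, 22.9, 55.5 and 72.8 CPM, with both α-cdKO samples above both controls (edgeR, log2 fold change 1.81 ± 0.25 (SE), adjusted p = 0.0516). This is 3.5-fold and narrowly missed the threshold. DESeq2 called it (adjusted p = 3.40e-07), where 0.155% of all genes were called higher. Over 14 alternatives, among them leaving out each sample, the log2 fold change ran from 1.49 to 2.25. With all samples kept it also passed with no filter on low counts (1.46% of all genes called) and with the replicate number as a block. It passed too with high doublet scores removed and at a Louvain resolution of 0.4. It did not pass with another normalization, crossed numbers, at least 2000 UMIs, no integration or the matrix genes kept in clustering. Col1a2 was at 3.42, 4.96, 21.6 and 8.18 CPM in the same cells, again without overlap (edgeR, log2 fold change 1.81 ± 0.46 (SE), adjusted p = 0.315). Over 14 alternatives its log2 fold change ran from 0.57 to 2.36, and without α-cdKO 1 it was 1.00. With all samples kept it passed only with DESeq2, with no filter on low counts and with the replicate number as a block. In activated-like cells Col1a1 overlapped between genotypes, at 9.13, 14.8, 13.6 and 28.1 CPM, and Col1a2 did not, at 0.913, 1.17, 2.47 and 2.99 CPM (edgeR, log2 fold change 1.43 ± 0.31 (SE), adjusted p = 0.251). In all myogenic cells Col1a1 was at 16.8, 20.1, 27.8 and 50.8 CPM and Col1a2 at 3.82, 3.05, 9.39 and 7.31 CPM (edgeR, adjusted p = 0.534 and 0.159). That set differs in make-up between samples: cycling-like cells were 0.547, 1.55, 4.20 and 1.56% of kept cells and held Col1a1 at 83.5, 103, 69.5 and 268 CPM and Col1a2 at 23.1, 6.95, 37.6 and 37.9 CPM. They held 13 of 178, 10 of 125, 235 of 656 and 82 of 534 of the Col1a2 UMIs of all myogenic cells. In the other myogenic cells Col1a1 was at 16, 17.1, 23.7 and 44.2 CPM and Col1a2 at 3.59, 2.91, 6.61 and 6.38 CPM, still without overlap, and no test was run on them.

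Few cells held Col1a1 UMIs. A Col1a1 UMI was seen in 4.34, 6.14, 5.96 and 10.2% of quiescent-like cells (median 5820 UMIs) and in 3.30% of endothelial-like cells (median 3369). Endothelial-like cells were taken to lack the gene, which was assumed and not tested. The fibroblast gene Dcn was present in some of them. With each cell thinned to 2000 UMIs the shares were 1.49, 2.57, 3.29 and 5.87% and, for 2 of 76 endothelial-like cells, 2.63% (95% Clopper-Pearson interval 0.320 to 9.18%). That interval treats cells pooled over the samples as independent and leaves out the spread between samples. A lone UMI is not read as expression. The 10 cells with the most held 60.0, 53.3, 68.2 and 41.5% of the Col1a1 UMIs of quiescent-like cells. In all, 56 of the 4546 quiescent-like cells (2, 8, 13 and 33) had 5 or more Col1a1 UMIs and held 884 of the 1325. They were chosen for that gene, so its level in them is a description. Leaving them out lowers the Col1a1 level by construction, and most where they were most numerous, so the remaining level is a description too. It was 10.1, 11.9, 15.8 and 21.4 CPM, without overlap, and Col1a2 in the same cells was at 3.06, 4.87, 7.19 and 4.86 CPM, with Control 2 and α-cdKO 2 nearly equal. The Col1a2 level is lowered by the same choice of cells and says nothing more of the genotypes. Of the 168 Col1a2 UMIs of quiescent-like cells in α-cdKO 1, 113 were in 13 of these cells. In them Col3a1 was at 2668, 2110.4, 2512 and 2903 CPM against 632, 771, 604 and 1158 CPM in the other quiescent-like cells, and Sparc was at 5281, 3099, 3476 and 3475 CPM against 1096, 1286, 894 and 1627 CPM, higher in each sample. Col1a2 was at 55.6, 13.4, 956 and 101 CPM in them, so the samples differed widely. Dcn was at 0, 66.8, 16.9 and 15.8 CPM in them against 54.5, 28.0, 41.3 and 10.5 CPM in the others, higher in 2 samples and lower in 2. The 8 fibroblast genes had 2 UMIs in the 56 cells, at 3.66 CPM against 2.9 CPM in the others, and the MuSC genes Pax7, Myf5 and Myod1 together were at 306, 775, 803 and 549 CPM against 545, 604, 504 and 514 CPM, lower in the 2 cells of Control 1 and higher in the other samples. That fibroblast list leaves out Gsn, Cd55, Dpt and Serping1, and the part of fibroblast RNA in the 56 cells was not tested. None of the 56 was among the cells with the highest doublet scores. They were deeper, at a median of 9594 against 5796.5 UMIs.

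Thbs1 was higher in α-cdKO in both states, at 32.3, 20.6, 47.4 and 55.2 CPM in quiescent-like cells (edgeR, log2 fold change 1.01 ± 0.21 (SE), adjusted p = 0.19) and at 49.9, 45, 87.1 and 81.8 CPM in activated-like cells (log2 fold change 0.86 ± 0.15 (SE), adjusted p = 0.11). The α-cdKO samples lay above the controls in each. DESeq2 called Thbs1 in both (adjusted p = 0.0499 and 0.00138). Over 14 alternatives each, the log2 fold change ran from 0.71 to 1.32 in quiescent-like cells and from 0.74 to 0.93 in activated-like cells. With all samples kept it passed in each state only with DESeq2, with no filter on low counts and with the replicate number as a block. Bgn was at 72, 73.5, 153 and 96.4 CPM in quiescent-like cells (edgeR, log2 fold change 0.81 ± 0.20 (SE), adjusted p = 0.308) and at 34, 32.5, 59.6 and 48 CPM in activated-like cells (log2 fold change 0.73 ± 0.17 (SE), adjusted p = 0.34), without overlap in either. For Bgn the log2 fold change ran from 0.46 to 1.09 in quiescent-like and from 0.55 to 0.88 in activated-like cells over 14 alternatives each. With all samples kept Bgn passed only in quiescent-like cells, with no filter on low counts and with the replicate number as a block. Marker lists of other cells also split the genotypes here. The mural list (7 genes, mostly Acta2) summed to 249, 299, 433 and 337 CPM in quiescent-like cells, with Myh11 at 0, and to 149.8, 132, 218 and 160.1 CPM in activated-like cells, higher in α-cdKO without overlap in both. Mural-like cells held that list at 10178 to 19837 CPM, Thbs1 at 12.3, 118, 585 and 744 CPM and Bgn at 61.3, 335, 47.7 and 14.6 CPM, and differentiated-like cells held the list at 2685 to 3183 CPM. The immune list, which belongs to the cells richest in Thbs1, summed to 3.04, 2.41, 0.386 and 1.75 CPM in quiescent-like and to 4.26, 3.02, 0.859 and 1.55 CPM in activated-like cells, lower in α-cdKO. In quiescent-like cells the differentiated list (41.2, 35.6, 63.1 and 74.7 CPM) and the cycling list (28.3, 30.2, 35.3 and 33.2 CPM) were higher in α-cdKO and the tendon list (14.8, 16.1, 10.7 and 11.1 CPM) was lower, each without overlap. Such splits are common among single genes. Without overlap, 17.3% of all genes were higher and 23.2% lower in α-cdKO in quiescent-like cells, and 15.4% and 21.5% in activated-like cells. The part of these lists in the Col1a1, Col1a2, Thbs1 and Bgn levels was not tested. Timp1 was at 3.23, 1.8, 9.4 and 3.6 CPM in quiescent-like cells (edgeR, log2 fold change 1.41 ± 0.50 (SE), adjusted p = 0.508), with α-cdKO 2 close to Control 1. Its log2 fold change ran from 0.60 (without α-cdKO 1) to 1.95 (without α-cdKO 2) over 14 alternatives. With all samples kept it passed only with no filter on low counts and with the replicate number as a block. Fn1 and Matn4 had unadjusted p-values under 0.05 in activated-like cells alone, Fn1 at 2.09, 3.13, 5.5 and 4.14 CPM and Matn4 at 2.3, 1.9, 4.05 and 4.47 CPM (edgeR, adjusted p = 0.543 and 0.338).

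On the lower side, Lox was at 68.6, 63.8, 42.7 and 40.8 CPM in activated-like cells (edgeR, log2 fold change -0.64 ± 0.15 (SE), adjusted p = 0.338) and at 49.3, 40, 27.5 and 25.8 CPM in all myogenic cells (log2 fold change -0.75 ± 0.15 (SE), adjusted p = 0.289). Loxl2 was at 119, 72.8, 48.3 and 64.5 CPM in activated-like cells (edgeR, log2 fold change -0.74 ± 0.24 (SE), adjusted p = 0.58) and at 62.7, 36.8, 33.4 and 33.8 CPM in quiescent-like cells (log2 fold change -0.52 ± 0.22 (SE), adjusted p = 0.588). Both α-cdKO samples lay below both controls each time. Control 1 was the highest sample for Loxl2 in both states. Its log2 fold change in activated-like cells ran over 14 alternatives from -1.04 (without Control 2) to -0.35 (without Control 1). In quiescent-like cells it ran from -0.83 (without Control 2) to -0.13 (without Control 1). With all samples kept Loxl2 passed in neither state. In all myogenic cells Tnc was at 2.53, 6.35, 11.5 and 6.93 CPM (edgeR, log2 fold change 1.04 ± 0.42 (SE), adjusted p = 0.69), with a log2 fold change of 0.53 to 1.83 over 15 alternatives. Col6a3 and Lama4 also had unadjusted p-values under 0.05 there, at under 1 CPM in every sample, and their direction reversed when all kept cells were summed. DESeq2 called 4 of the genes in all myogenic cells (Col1a1, Col1a2 and Thbs1 higher, Lox lower), a set in which 35.8% of the Col1a2 UMIs of α-cdKO 1 were in cycling-like cells, 3 in quiescent-like cells (Col1a1, Col1a2 and Thbs1 higher) and 1 in activated-like cells (Thbs1 higher). By that test 0.424%, 0.155% and 0.211% of all genes were called higher and 0.424%, 0.0690% and 0.276% lower.

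**Figure D4:**
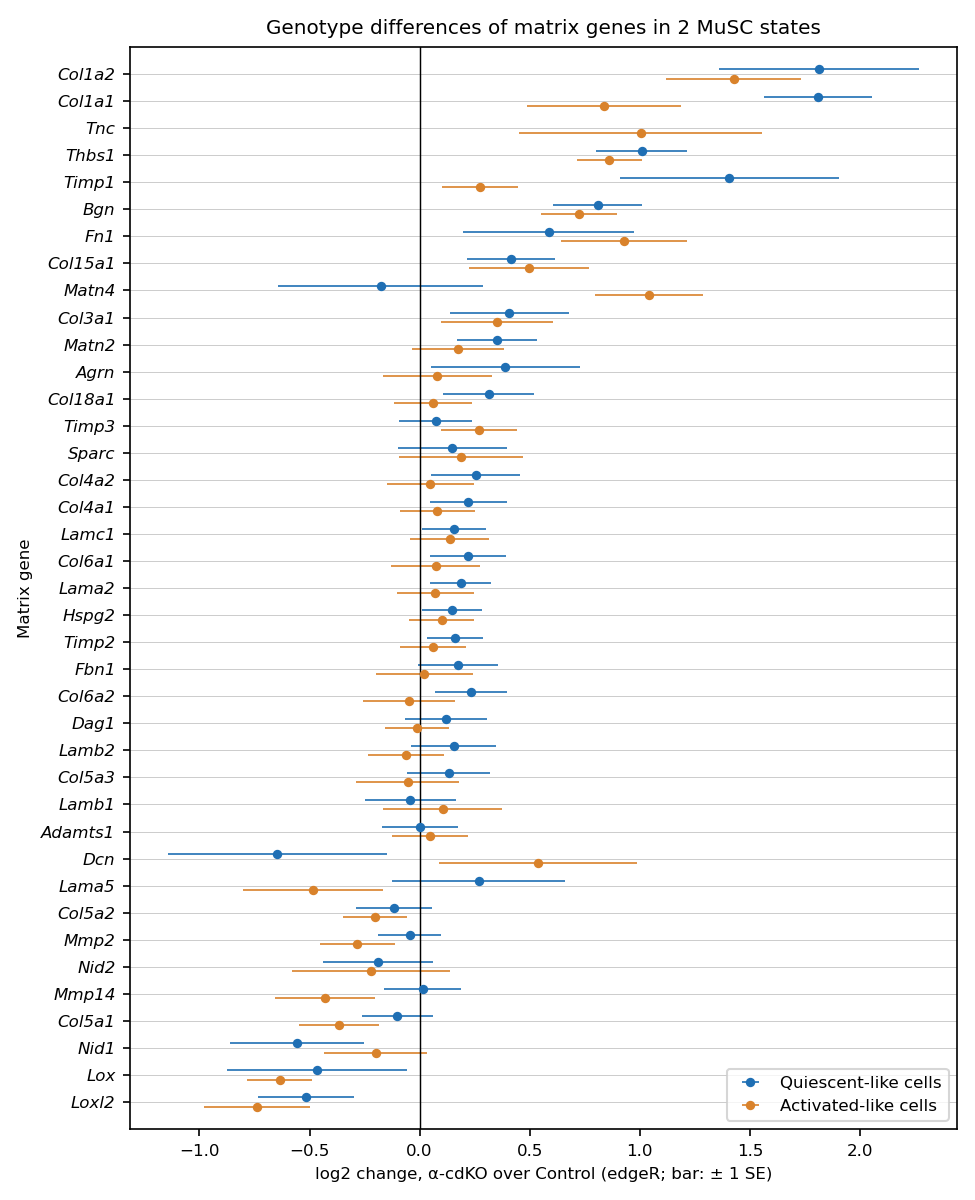
Log2 fold change of α-cdKO over Control (horizontal, edgeR, bars ± 1 SE, 2 against 2 samples) for each matrix gene tested in quiescent-like (blue) or activated-like (orange) cells. Most points lie within 0.5 of 0, Col1a1, Col1a2 and Thbs1 lie furthest right in quiescent-like cells together with Timp1, and Lox and Loxl2 lie furthest left in activated-like cells; none passed the adjusted threshold.

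**Figure D5:**
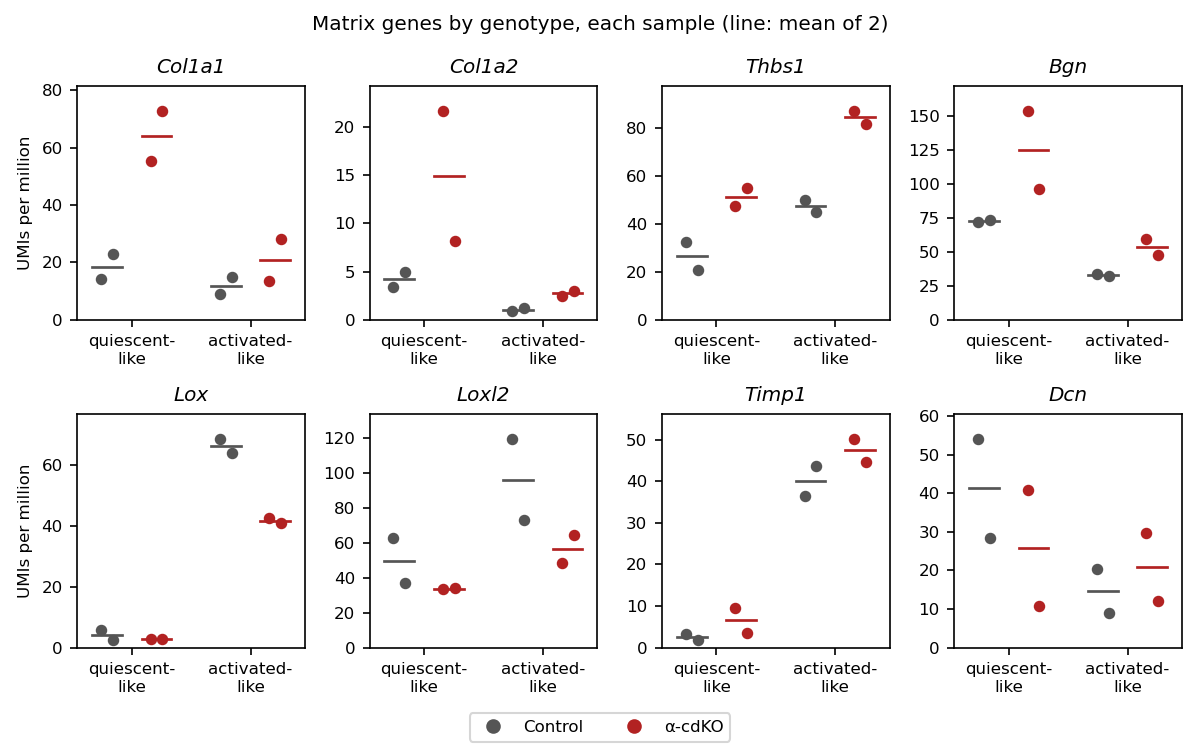
Level (CPM) of 8 matrix genes in each sample, in quiescent-like and activated-like cells, with Control in grey and α-cdKO in red and a line at the mean of 2 samples. Thbs1 and Bgn separate the genotypes upward and Loxl2 downward in both states, and Dcn overlaps in each.

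Whether the genotype difference itself differed between the states was tested with a state by genotype term and the sample as a block. Of 13190 genes 1 was called (0.00758%), and 0 of 39 matrix genes. At an unadjusted p under 0.05 there were 4 of the 39 (Col1a1, Dcn, Matn4 and Timp1), against 5.12% of all genes. The smallest adjusted p among them was 0.218, for Dcn, which was at 54.1, 28.4, 41 and 10.7 CPM in quiescent-like cells and at 20.3, 8.94, 29.6 and 12.1 CPM in activated-like cells. For Col1a1 the difference of the effects was 1.06 on the log2 scale (edgeR, adjusted p = 0.534). None of the genes that led the quiescent-like state passed between genotypes. Col3a1 was at 646, 787, 633 and 1218 CPM there (edgeR, log2 fold change 0.41 ± 0.27 (SE), adjusted p = 0.702), Sparc had a log2 fold change 0.15 ± 0.25 (SE), adjusted p = 0.885, and Dag1 had a log2 fold change 0.12 ± 0.19 (SE), adjusted p = 0.874. Col4a1 had a log2 fold change 0.22 ± 0.18 (SE), adjusted p = 0.744, and Lamc1 had a log2 fold change 0.16 ± 0.15 (SE), adjusted p = 0.782. Of the 80 other matrix genes 65, 58 and 59 were tested in all myogenic, quiescent-like and activated-like cells and 0 were called. The smallest adjusted p in all myogenic cells was 0.12, for Col8a1 (log2 fold change 1.16).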

How the data were processed

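Single cell RNA-sequencing covered tdTomato+ cells of 2 Control and 2 α-cdKO samples, each a pool of 2 littermates with 30000 cells loaded. The authors deposited UMI counts per gene and barcode, made with Cell Ranger from 10x 3′ libraries, as whole numbers without normalization for the barcodes called as cells. Per the labels the builds are GRCm38 and mm10 and the tools Cell Ranger and Seurat 4.0.3. The reads themselves were not analysed.

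Following the study, a barcode was kept with 1000 or more UMIs, 400 or more genes and less than 15% of its UMIs from mitochondrial genes. Counts were log-normalized in Seurat 5.3.0 (R 4.3.3). The 42 genes and 80 other matrix genes were left out, and 2000 variable genes, 30 principal components, the Harmony method (written anew here and checked on simulated cells) and Louvain clustering at resolution 0.2 followed. Clusters were named where at least 3 listed markers were raised at least 1.5-fold, and non-myogenic clusters were clustered again at 0.8, a step added after the first clusters were seen. Names were rebuilt and may differ from the study's. Scrublet in scanpy 1.11.5 marked 1, 5, 0 and 1 doublets, so cells stayed in, and removal of the highest scores (241, 229, 766 and 533 cells) was an alternative.

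The UMIs of each class were added up within a sample with numpy 2.4.6, pandas 2.3.3 and scipy 1.17.1 in Python 3.11.15. Genes with at least 10 UMIs over both classes were compared between classes by ratio, with 5 CPM added. Genotypes were compared with edgeR 4.0.16 (TMM factors, filterByExpr, the quasi-likelihood test and Benjamini-Hochberg adjustment over all genes), and DESeq2 1.42.0 was an alternative. The edgeR and ratio steps were tested on simulated data. SDs run over 4 samples, the SE comes from the edgeR fit, and p-values measure only the spread between pooled samples. Figures were drawn with matplotlib 3.10.9.

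All 42 genes are accounted for. Those with a mean of at least 20 CPM in quiescent-like, activated-like, endothelial-like or glial-like cells are given per sample, as are those with an unadjusted p under 0.05 between genotypes. The members and lists were chosen with earlier results of these data known. The fibroblast-like and mural-like comparisons, the choice of cells with 5 or more Col1a1 UMIs, the levels without cycling-like cells and the removal of high doublet scores from chaperone-led and mature-muscle-like cells were made after the clusters were seen. Alternatives changed the added CPM, clustering, doublets, integration, normalization, filter, test, replicate block and samples.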

Additional observations from a re-analysis of the deposited data

How the results depend on the processing

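Genes called between genotypes were 26 in all myogenic, 10 in quiescent-like and 19 in activated-like cells. In the same order of cells, DESeq2 gave 124, 26 and 60, and no filter on low counts gave 15, 300.0 and 72. Summing all kept cells gave 0, and a Louvain resolution of 0.4 gave 19 in quiescent-like cells. With each sample left out in turn, where the lone sample of a genotype is assumed to vary like the others, the counts ran from 0 to 90, 19 to 430.0 and 21 to 414. Of the 42 genes, 13 in place of 8 were higher in quiescent-like cells with 1 CPM added or without Control 1 (8 to 13 with each sample left out), and 5 in place of 2 in glial-like cells without Control 2 (2 to 5). Col6a3 and Lama4 turned to log2 fold changes of -0.26 and -0.23 when all kept cells were summed, which adds the classes outside the myogenic cells; myogenic cells hold 15.6 and 27.7% of their UMIs. The cause of the other shifts was not tested. Of the counts 75 stayed within 1.5 times and 27 did not, and of the values of single genes 279 kept their direction and side of the threshold, 50 came to pass it and 2 reversed. The small classes hold 31 cells or fewer per sample, which limits their levels.

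Whether the replicate numbers pair the samples is not settled. Deviations of same-numbered samples correlated at -0.19 in all myogenic, 0.01 in quiescent-like and -0.17 in activated-like cells (across genes, 2 pairs). With 2 samples per genotype the crossed pairing gives the same values with the opposite sign, so they cannot exclude a shared batch. With the number as a replicate block 13, 156 and 97 genes were called, of them 0, 6 (Col1a1, Col1a2, Bgn, Thbs1 and Timp1 higher, Dcn lower) and 1 (Thbs1) of the 42. With the numbers crossed, a pairing added after the data were seen, 149, 8 and 46 were called, of them 3 (Col1a2 and Tnc higher, Loxl2 lower), 0 and 0 of the 42.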

Other observations

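Mature-muscle-like cells, 126, 840, 283 and 117 in number and led by Tnnc2, Mylpf and Tnnt3, joined 2 clusters. In the smaller one (12, 122, 44 and 48 cells) 52.7% of cells had a high doublet score, against 0.351% in the larger. Over both, Col3a1 was at 125, 74.4, 176 and 493 CPM, Sparc at 201, 156, 152 and 629 CPM and Dag1 at 45.9, 62.8, 72 and 123 CPM. Without the cells of high doublet score, Col3a1 was at 62.2, 39.8, 35.4 and 460.2 CPM, Sparc at 104, 56.0, 65.0 and 577 CPM and Dag1 at 32.9, 28.2, 44.3 and 123 CPM, highest in α-cdKO 2. Their Col4a1 to Col4a2 ratio, 4.7 to 6.45 over the 3 samples with enough UMIs, lay above the myogenic range. A further 88 barcodes (17, 15, 29 and 27) carried markers of more than 1 class and stayed unnamed, with a median of 11073 UMIs. In them Col4a1 was at 412, 137, 207 and 534 CPM and Col4a2 at 175, 107, 83.9 and 195 CPM, a ratio of 1.27 to 2.75.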
